A study of Bos indicus and Bos taurus with 17 samples.

Results

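The 10 genes described here are proliferation markers and regulators of the step from G1 into S phase: MKI67, TOP2A, CDK1, CCNB1, PCNA, MCM2, CCND1, CCND3, CDKN1A and CDKN1B. They were chosen by name from 21631 distinct gene names in a table of 61264 entries, and each of the 10 was carried by a single entry under its own symbol. RNA was sequenced from milk cells captured with beads that carried an antibody to keratin 18, from Kashmiri (Bos indicus) and Jersey (Bos taurus) cows on day 15 (D15, early), D90 (mid) and D250 (late) in milk. The labels give 3 samples for each group of breed and day except Jersey at D90, which has 2. All were in lactation number 2 or 3, with no treatment and no stated age. Kashmiri at D90 and Jersey at D250 had lactation number 2 only, while the other groups had both. Sampling fell in March at D15, in July at D90 and in December at D250 for both breeds, so stage and season cannot be told apart. The values are the authors' FPKM, the fragments assigned to a gene divided by the length of its transcript and by the mapped reads, with a single value for each of the 6 groups. No value per cow was used, so no error, interval or test is given for any value below, and a single cow could set a group value. The table holds no read counts, so the depth behind each value could not be read from it. Where 3 values of a breed follow each other below, they stand in the order D15, D90, D250.

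The cell cycle is driven by cyclin-dependent kinases, which need a cyclin partner to act. D-type cyclins open the way out of G1, the MCM complex licenses and unwinds DNA for replication, and CDK1 with cyclin B takes the cell into mitosis. The inhibitors p21 and p27 bind cyclin and kinase pairs and hold cells back. In the cow, secretory cells of the udder divide mainly during pregnancy and around calving, and the milk of a lactating cow also carries leukocytes, of which neutrophils are end-stage cells that no longer divide.

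The lists of cell type markers were first set beside the label of epithelial cells. KRT18, the keratin used for the capture, was at 51.3, 9.13 and 11.5 FPKM over the 3 days in Kashmiri cattle, against 33.7, 1.59 and 4.51 FPKM in Jersey cattle. All 14 epithelial markers were found, and their summed FPKM ran from 106 (Jersey, D90) to 5956 (Kashmiri, D15). The 8 neutrophil markers found of 12 summed to between 222 and 675 FPKM in the Kashmiri groups and between 4917 and 13602 FPKM in the Jersey groups. The 10 macrophage markers summed to 129 to 510.5 FPKM in Kashmiri and 1067 to 2179 FPKM in Jersey cattle, the 11 T and NK cell markers to between 116 (Jersey, D250) and 1854 FPKM (Kashmiri, D90), and the 7 B cell markers to between 8.90 (Jersey, D250) and 80.0 FPKM (Kashmiri, D90). None of KRT18, EPCAM, CSF3R, S100A8, CD68, CD3E and CD79A was listed at 0 in any group, while HBB, a red blood cell gene, was listed at 0 in 3 groups and stayed under 1 FPKM in the others, as did the sum of the 3 red blood cell markers found of 4. A listed 0 does not show absence in this table: of the 5 milk protein genes found of 6, CSN1S1, CSN2 and PAEP were listed at 0 in every group but Jersey at D90, and 4 of the 5 genes were at 0 in each of those 5 groups, in cells from milk. In such bulk samples, fewer cells of a type and less RNA per cell cannot be told apart.

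MKI67, TOP2A, CDK1 and CCNB1 mark cells in the later part of the cycle. MKI67, which encodes the Ki-67 antigen of dividing cells, had 0.796, 2.19 and 2.86 FPKM over the 3 days in Kashmiri cattle, against 2.38, 0.936 and 1.20 FPKM in Jersey cattle. TOP2A, the topoisomerase that untangles chromosomes before they part, had 0.724, 1.60 and 2.97 FPKM in Kashmiri and 1.59, 1.06 and 0.699 FPKM in Jersey cattle. CCNB1, the mitotic cyclin B1, had 0.386, 3.28 and 2.94 FPKM in Kashmiri and 2.67, 1.73 and 0.845 FPKM in Jersey cattle. For these 3 genes, D15 was the lowest day in Kashmiri and the highest day in Jersey cattle.

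CDK1, the kinase that cyclin B activates, varied less, with 3.52, 4.05 and 5.36 FPKM in Kashmiri and 3.07, 2.21 and 1.90 FPKM in Jersey cattle. It was higher at each later day in Kashmiri and lower at each later day in Jersey cattle. Together the 4 genes summed to 5.43, 11.1 and 14.1 FPKM in Kashmiri and to 9.71, 5.93 and 4.64 FPKM in Jersey cattle. Ranked among the genes above 0.01 FPKM of a group, which does not depend on the scaling of that group, MKI67 lay between the percentiles 29.3 (Kashmiri, D15) and 47.1 (Kashmiri, D250), and CCNB1 between 22.5 (Kashmiri, D15) and 49.6 (Kashmiri, D90). CDK1 ranked highest of the 4 in each group, between 39.7 (Jersey, D250) and 59.3 (Kashmiri, D250).

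**Figure D1:**
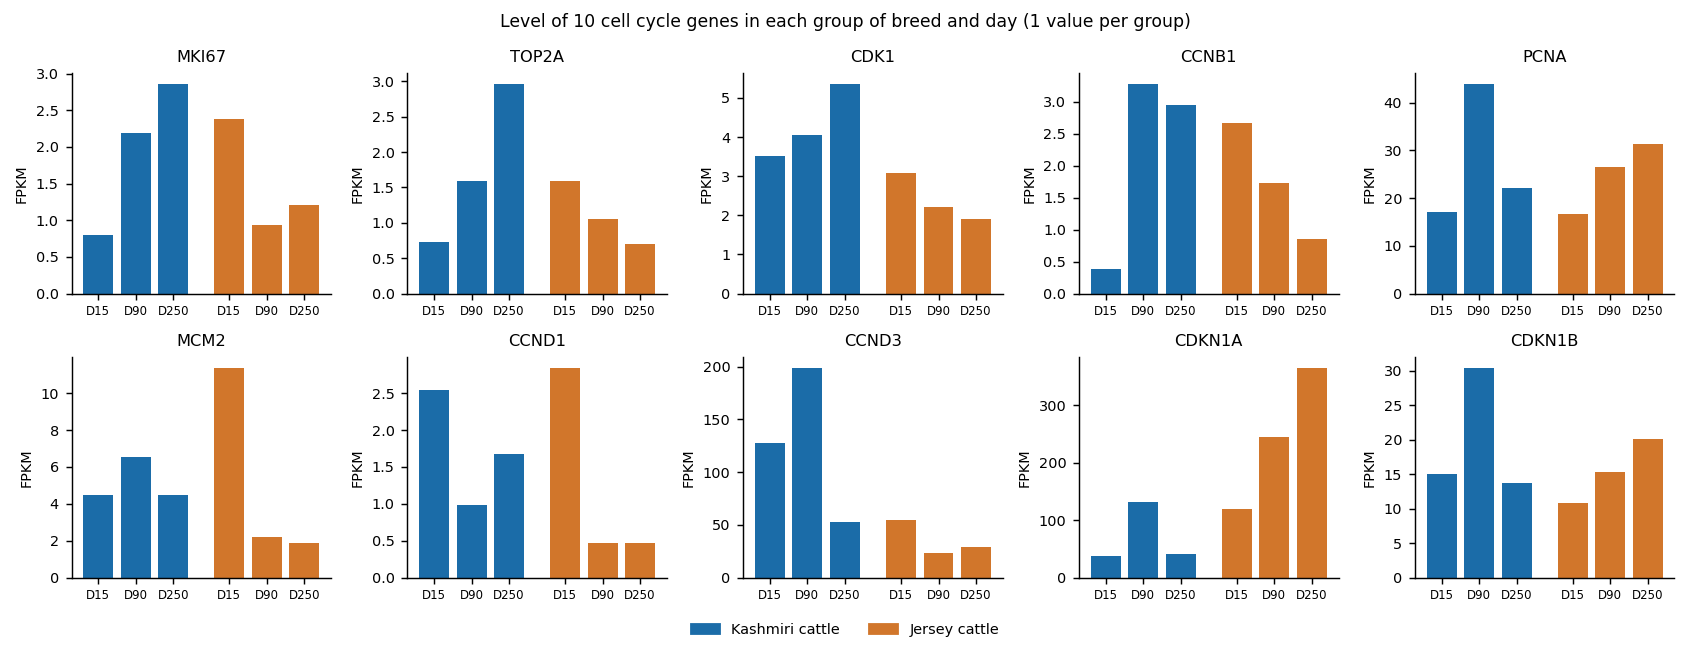
FPKM (vertical axis, linear, each panel with its own scale) of the 10 genes on the 3 days, Kashmiri in blue and Jersey in orange, with 1 value per bar and therefore no error bars. MKI67, TOP2A and CCNB1 are lowest at D15 in Kashmiri and highest at D15 in Jersey cattle, while CDKN1A reaches 366 FPKM in Jersey at D250.

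Between D15 and D250 in Kashmiri cattle, the plain ratio of the group values was 7.63-fold for CCNB1, 4.10-fold for TOP2A, 3.60-fold for MKI67 and 1.52-fold for CDK1. In Jersey cattle, D15 exceeded D250 by 3.16-fold for CCNB1, 2.28-fold for TOP2A, 1.97-fold for MKI67 and 1.62-fold for CDK1. The direction was thus opposite in the breeds for all 4 genes, and it was the same when each group was scaled to its summed FPKM, milk protein genes left out (sum scaling), or by its upper quartile. The difference between the breeds could not be tested with 1 value a group. At these levels a pseudocount reduces a ratio: with 1 FPKM added, the log2 ratio of CCNB1 between D15 and D250 in Kashmiri cattle was 1.51 in place of 2.93.

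PCNA and MCM2 serve DNA replication, PCNA as the ring that holds the polymerase on DNA and MCM2 as a subunit of the replicative helicase. PCNA had 17.2, 44.0 and 22.2 FPKM over the 3 days in Kashmiri cattle, against 16.7, 26.4 and 31.4 FPKM in Jersey cattle. It was lowest at D15 in both breeds, with nearly equal values, and its highest day was D90 in Kashmiri and D250 in Jersey cattle as deposited, while under sum scaling the Jersey log2 ratio of D250 over D90 went from 0.24 to -0.23. MCM2 had 4.48, 6.53 and 4.46 FPKM in Kashmiri and 11.4, 2.22 and 1.88 FPKM in Jersey cattle. Its Jersey value at D15 was the highest of the 6 groups and exceeded the Jersey values at D90 and D250 by 5.14-fold and 6.06-fold.

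PCNA and MCM2 went apart in Jersey cattle. From D15 to D250 the log2 ratio, with 1 FPKM added, was 0.88 for PCNA and -2.11 for MCM2, so that the quotient of PCNA and MCM2 went from 1.46 to 11.9 and 16.7 over the 3 days. The Kashmiri quotients were 3.84, 6.74 and 4.96. PCNA ranked between the percentiles 76.0 (Jersey, D15) and 90.3 (Kashmiri, D90), well above the mitotic genes. PCNA also takes part in DNA repair.

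CCND1 and CCND3 encode the D-type cyclins D1 and D3, which pair with the same kinases, CDK4 and CDK6. CCND3 was by far the more abundant, with 128, 199 and 52.9 FPKM over the 3 days in Kashmiri cattle, against 54.4, 23.3 and 29.3 FPKM in Jersey cattle. CCND1 had 2.55, 0.986 and 1.67 FPKM in Kashmiri and 2.84, 0.475 and 0.469 FPKM in Jersey cattle, under 1 FPKM in 3 of the 6 groups. Since FPKM is scaled to length, levels of different genes can be compared within a group, and CCND3 exceeded CCND1 by 19.1-fold (Jersey, D15) to 202-fold (Kashmiri, D90).

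The cyclins also followed different days. CCND1 was highest at D15 in both breeds as deposited, though in Kashmiri cattle its log2 ratio of D250 over D15 went from -0.41 to 0.24 under sum scaling, and its D15 value exceeded that at D90 by 2.59-fold in Kashmiri and 5.99-fold in Jersey cattle. CCND3 was highest at D90 in Kashmiri cattle, from where D250 was lower by 3.76-fold, and at D15 in Jersey cattle. At D90, Kashmiri exceeded Jersey cattle in CCND3 by 8.55-fold, with a log2 ratio with pseudocount of -3.04, Jersey over Kashmiri. At D15 and D250 the same ratio was -1.22 and -0.83. In rank, CCND3 lay between the percentiles 93.4 and 97.8 in the Kashmiri groups and between 81.6 and 89.8 in the Jersey groups.

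Values of the marker lists stood beside these levels. The T and NK cell markers summed to 478, 1854 and 430.5 FPKM over the 3 days in Kashmiri cattle, against 336, 198 and 116 FPKM in Jersey cattle, so that their highest group, Kashmiri at D90, was also that of CCND3. For the B cell markers the sums were 17.1, 80.0 and 31.2 FPKM in Kashmiri and 27.2, 13.3 and 8.90 FPKM in Jersey cattle. The epithelial markers summed to 5956, 739.6 and 2654 FPKM in Kashmiri and 2757, 106 and 1409 FPKM in Jersey cattle. D15 was the highest day of the sum in both breeds, as for CCND1 as deposited. Between the breeds at D15, the sum was higher in Kashmiri cattle, while CCND1 was higher in Jersey cattle (2.84 against 2.55 FPKM). KRT19 and ELF5 made up most of the sum at D15, with 3195 and 1799 FPKM in Kashmiri and 1687 and 338 FPKM in Jersey cattle. Single markers could differ: EPCAM, CDH1 and CLDN4 in Kashmiri and ELF5, MUC1 and CDH1 in Jersey cattle were higher at D250 than at D15. The part of T, NK, B and epithelial cells in the levels of CCND1 and CCND3 was not tested.

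CDKN1A and CDKN1B encode the inhibitors p21 and p27. CDKN1A, which is induced by stress and in maturing cells, had 37.2, 131 and 41.8 FPKM over the 3 days in Kashmiri cattle, against 119.8, 246 and 366 FPKM in Jersey cattle. As deposited, it was higher at each later day in Jersey cattle and peaked at D90 in Kashmiri cattle. Its Jersey ranks at D90 and D250 were close, at the percentiles 97.2 and 97.4. On each day the Jersey value was above the Kashmiri value. Jersey exceeded Kashmiri cattle by 3.22-fold at D15, 1.87-fold at D90 and 8.76-fold at D250, and the log2 ratio with pseudocount at D250 was 3.1002, which became 2.61 by the upper quartile and 2.33 under sum scaling. As deposited this was the largest absolute log2 ratio of the 10 genes in the 9 comparisons, while under these scalings that of CCND3 at D90, -3.18 and -2.70, was larger in size.

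CDKN1B, whose protein keeps resting cells out of S phase, had 15.1, 30.5 and 13.7 FPKM in Kashmiri and 10.9, 15.3 and 20.2 FPKM in Jersey cattle. Its day of highest value was the same as that of CDKN1A in each breed as deposited, with a Jersey log2 ratio of D250 over D90 of 0.38 that became -0.08 under sum scaling, and its range over the 6 groups was narrower, 2.80-fold against 9.83-fold. CDKN1A exceeded CDKN1B by 2.47, 4.31 and 3.05-fold over the 3 days in Kashmiri cattle, against 11.0, 16.0 and 18.1-fold in Jersey cattle. Between the breeds, CDKN1B was lower in Jersey cattle at D15 and D90 and higher at D250, where the log2 ratio of 0.53 became -0.21 under sum scaling.

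The order of CDKN1A over CCND3 differed between the breeds on every day: the quotient was 0.291, 0.661 and 0.790 in Kashmiri cattle, against 2.20, 10.6 and 12.5 in Jersey cattle. Beside CDKN1A, the neutrophil markers summed to 222, 646 and 675 FPKM in Kashmiri and 4917, 5532 and 13602 FPKM in Jersey cattle, and the macrophage markers to 129, 496 and 510.5 FPKM in Kashmiri and 1067, 2179 and 1982 FPKM in Jersey cattle. In the sums of both lists, all 3 Jersey groups were above all 3 Kashmiri groups. Single macrophage markers could differ. At D250, 5 of 9 tested were higher past 2-fold in Jersey than in Kashmiri cattle and 1, MSR1, was lower (22.8% and 11.7% of all genes). C1QA and C1QB were also lower there, by less than 2-fold on log2(FPKM + 1). All 8 neutrophil markers were higher past 2-fold at D250, where 22.8% of all genes were. For CDKN1A the groups overlapped, since Kashmiri at D90 (131 FPKM) was above Jersey at D15 (119.8 FPKM). The part of these cells in the level of CDKN1A was not tested.

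**Figure D2:**
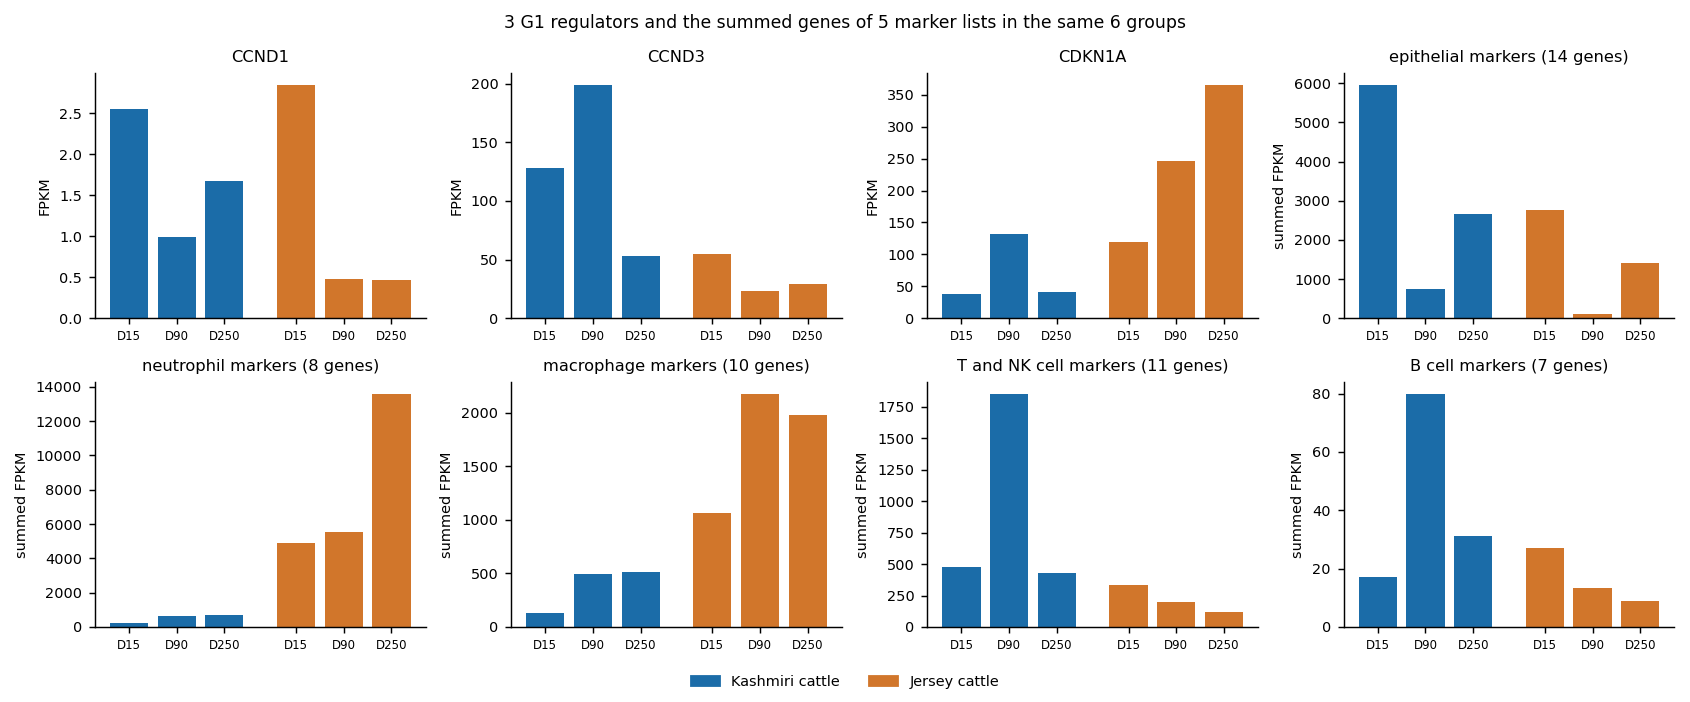
FPKM of CCND1, CCND3 and CDKN1A and summed FPKM of 5 lists of cell type markers (vertical axes, linear, each with its own scale) in the same 6 groups, Kashmiri in blue and Jersey in orange, 1 value per bar. CCND3 and the T and NK cell markers are highest in Kashmiri at D90, CDKN1A and the neutrophil markers in Jersey at D250, and the epithelial markers at D15 in both breeds.

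The 10 genes were then counted in 9 comparisons of 2 groups, which share groups and so are not independent. A gene was tested where either group reached 1 FPKM, and was called past 2-fold or 4-fold on log2(FPKM + 1), with no p-value. Past 4-fold, Kashmiri cattle had 0 calls in 10 genes for D90 over D15 (7.5% of all genes tested), 0 for D250 over D90 (1.98%) and again 0 from D15 to D250 (4.05%). Jersey cattle had 0 calls for D90 over D15 (6.76%), 0 in 9 genes for D250 over D90 (4.18%) and 1, MCM2, for D250 over D15 (12.6%). Between the breeds, 0 were called at D15 (8.57%), 1 of 9, CCND3, at D90 (11.7%) and 1, CDKN1A, at D250 (12.3%). CCND1 was the gene that was not tested in the comparisons with 9.

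Past 2-fold, CCNB1, PCNA and CDKN1A were higher at D90 than at D15 in Kashmiri cattle. That is 3 of 10 genes where 33.5% of all genes tested were called (14.7% higher and 18.8% lower). Between D90 and D250, CCND3, CDKN1A and CDKN1B were lower at D250, 3 of 10 genes against 17.7% of all (8.95% higher and 8.77% lower). Between D15 and D250, MKI67, TOP2A and CCNB1 were higher and CCND3 was lower at D250, 4 of 10 genes against 25.7%. In Jersey cattle, CDKN1A was higher and MCM2, CCND1 and CCND3 were lower at D90 than at D15, 4 of 10 genes against 29.8%. None of 9 genes was called between D90 and D250 (20.9% of all, 16.6% higher and 4.22% lower), and between D15 and D250 CDKN1A was higher and MCM2 and CCND1 were lower at D250, 3 of 10 genes against 42.4%.

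Between the breeds past 2-fold, CCNB1, MCM2 and CDKN1A were higher and CCND3 was lower in Jersey than in Kashmiri cattle at D15, 4 of 10 genes against 28.9% of all. At D90, MCM2 and CCND3 were lower in Jersey cattle, 2 of 9 genes against 32.9% (17% higher and 15.9% lower). At D250, CDKN1A was higher and TOP2A, CDK1 and CCNB1 were lower, 4 of 10 genes against 34.5%. With these shares around the background, the number of calls did not set the 10 genes apart from other genes.

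**Figure D3:**
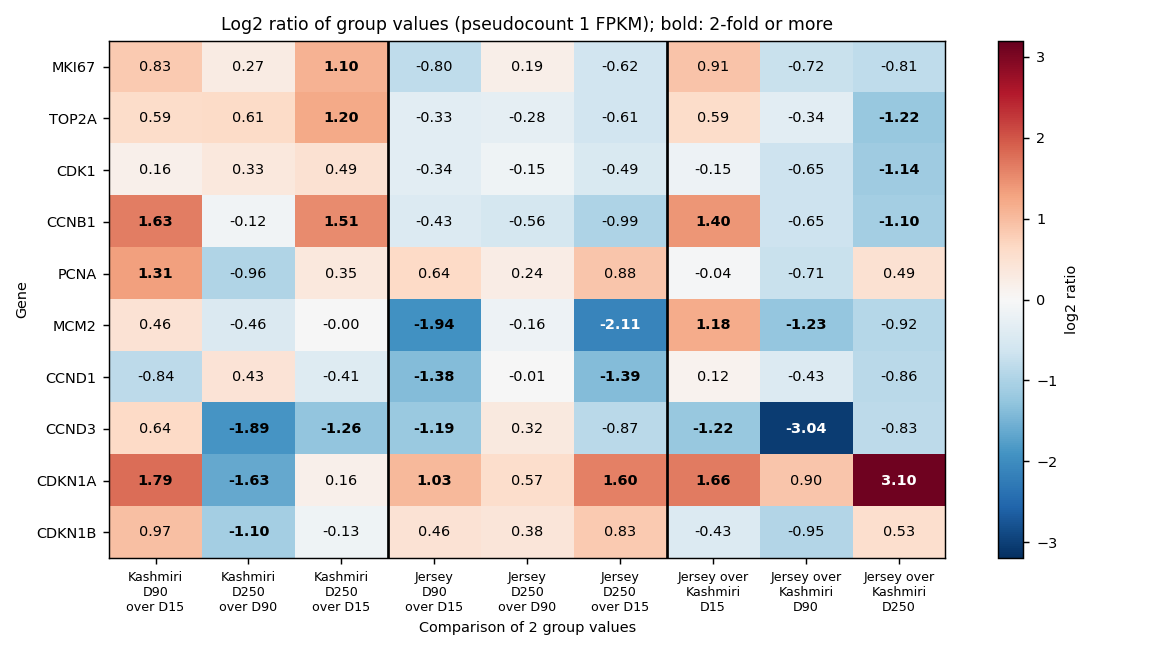
Log2 ratio of group values with a pseudocount of 1 FPKM for the 10 genes (rows) in 9 comparisons (columns), red for higher and blue for lower in the group named first, and bold where the ratio was 2-fold or more. The extreme values as deposited are CDKN1A at 3.1002 and CCND3 at -3.04, both Jersey over Kashmiri, at D250 and at D90.

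The splits depended on the scaling. The FPKM of a group summed to between 533249 (Kashmiri, D250) and 1023150 (Kashmiri, D15). Sum scaling left out only entries that carried a milk protein gene name, most of which were listed at 0. The genes found summed to between 1817 (Jersey, D15) and 13031 FPKM (Kashmiri, D250), so it was close to a scaling by all FPKM. Under sum scaling the all-gene median for D250 over D15 in Kashmiri cattle went from -0.04 to 0.77 (log2), and 6 of the 10 genes were then higher and 0 lower past 2-fold, beside 37.7% of all genes higher and 2.83% lower. The median of the 10 genes was 0.26 without and 1.19 with it, in both cases above that of all genes. At D250 between the breeds, the all-gene median went from -0.10 to -0.75, and 7 of the 10 genes were lower and 1 higher in Jersey cattle, beside 37.6% of all genes lower and 13.6% higher. The upper quartile gave 7 and 1 there as well, with a median of all genes of -0.52 and 26.6% of all genes lower and 16.4% higher. The median of the 10 genes at D250 was -0.85 as deposited, lower than that of all genes. For D250 over D90 in Kashmiri cattle sum scaling gave 1 higher and 1 lower gene (25.2% and 2.78% of all). In Jersey cattle it gave 1 and 2 from D15 to D90 (17.8% and 12.6%) and 1 and 4 from D15 to D250 (20.5% and 22.5%). Jersey against Kashmiri, it gave 4 and 0 at D15 (21.4% and 6.68%) and 1 and 1 at D90 (22.8% and 11.8%).

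Other genes of the cycle were read from lists, with the 10 genes left out. Of 28 further genes of G2 and mitosis, 25 were found. In Kashmiri cattle, 10 of 19 genes tested were higher and 1 lower past 2-fold at D90 than at D15, where 14.7% and 18.8% of all genes were, and the median log2 ratio was 1.03 against -0.01 for all genes. Between D15 and D250, 9 of 20 were higher and 0 lower (11.2% and 14.5% of all), with a median of 0.98 against -0.04. Under sum scaling 18 of 21 were higher at D250 (37.7% of all), with a median of 1.45 against 0.77 for all genes. UBE2C, which loads ubiquitin for the degradation of cyclin B, had 2.19, 15.4 and 11.95 FPKM, and TPX2, a spindle protein, had 1.61, 6.33 and 4.07 FPKM. CKS2, a small subunit that binds CDK1, had 3.96, 80.3 and 31.1 FPKM, and CDC25B, the phosphatase that activates CDK1, had 8.91, 33.8 and 13.7 FPKM.

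The Jersey values of the list lay the other way. For D250 over D15, 8 of 17 genes tested were lower and 1 higher past 2-fold, where 17.9% of all genes were lower and 24.5% higher, and the median log2 ratio was -0.87 against 0.07 for all genes. CCNB2, a B-type cyclin, had 10.6, 2.03 and 2.06 FPKM, CDC20, an activator of the anaphase-promoting complex, had 5.28, 1.77 and 1.09 FPKM, and BIRC5, which encodes survivin of the chromosomal passenger complex, had 5.35, 2.88 and 1.36 FPKM. The gene that was higher was NUSAP1, a spindle protein, with 5.64, 21.9 and 52.2 FPKM. In Kashmiri cattle, some genes of the list were highest at D15, unlike CCNB1. These were CCNB2 (4.60, 3.08 and 2.52 FPKM), PRC1 (5.86, 3.13 and 3.98 FPKM) and BUB1B (2.68, 0.506 and 1.41 FPKM). At D15, 7 of 18 genes were higher and 1 lower in Jersey than in Kashmiri cattle (15.9% and 13% of all), while at D250 7 of 20 were lower and 1 higher (11.7% and 22.8% of all). Under sum scaling, these splits became 9 of 18 higher and 0 lower at D15 (21.4% and 6.68% of all) and 16 of 21 lower and 0 higher at D250 (37.6% and 13.6% of all).

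Of 27 further genes of replication and S phase, 26 were found. Between D15 and D90 in Jersey cattle, 9 of 24 genes tested were lower and 0 higher past 2-fold (16.9% and 12.8% of all genes). Between D15 and D250, 10 of 24 were lower and 1 was higher (17.9% and 24.5% of all genes). The median log2 ratio between D15 and D250 was -0.87 against 0.07 for all genes. MCM3, another helicase subunit, had 12.01, 3.24 and 1.94 FPKM in Jersey cattle, and 6.36, 16.5 and 6.69 FPKM in Kashmiri cattle. TK1, thymidine kinase of S phase cells, had 24.8, 6.46 and 3.01 FPKM in Jersey and 8.49, 16.9 and 6.98 FPKM in Kashmiri cattle, and GINS2, part of the helicase complex, had 20.5, 9.29 and 3.38 FPKM in Jersey and 8.19, 17.7 and 4.24 FPKM in Kashmiri cattle. For these 3 genes and MCM2 the highest day was D15 in Jersey and D90 in Kashmiri cattle as deposited, and for MCM2 the Kashmiri log2 ratio of D250 over D90 went from -0.46 to 0.09 under sum scaling. Not all genes of the list shared these days. GINS1 (6.80, 1.84 and 3.92 FPKM), GINS3, RFC4 and CDC45 were highest at D15 in Kashmiri cattle. CDC6 was higher at each later day in Jersey cattle (1.76, 2.66 and 7.15 FPKM). In Kashmiri cattle, 4 of 23 genes were higher and 2 lower past 2-fold at D90 than at D15 (14.7% and 18.8% of all). In Kashmiri cattle between D15 and D250, 1 of 23 genes was higher and 0 lower (11.2% and 14.5% of all). Under sum scaling 7 of 25 were higher and 0 lower (37.7% and 2.83% of all).

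**Figure D4:**
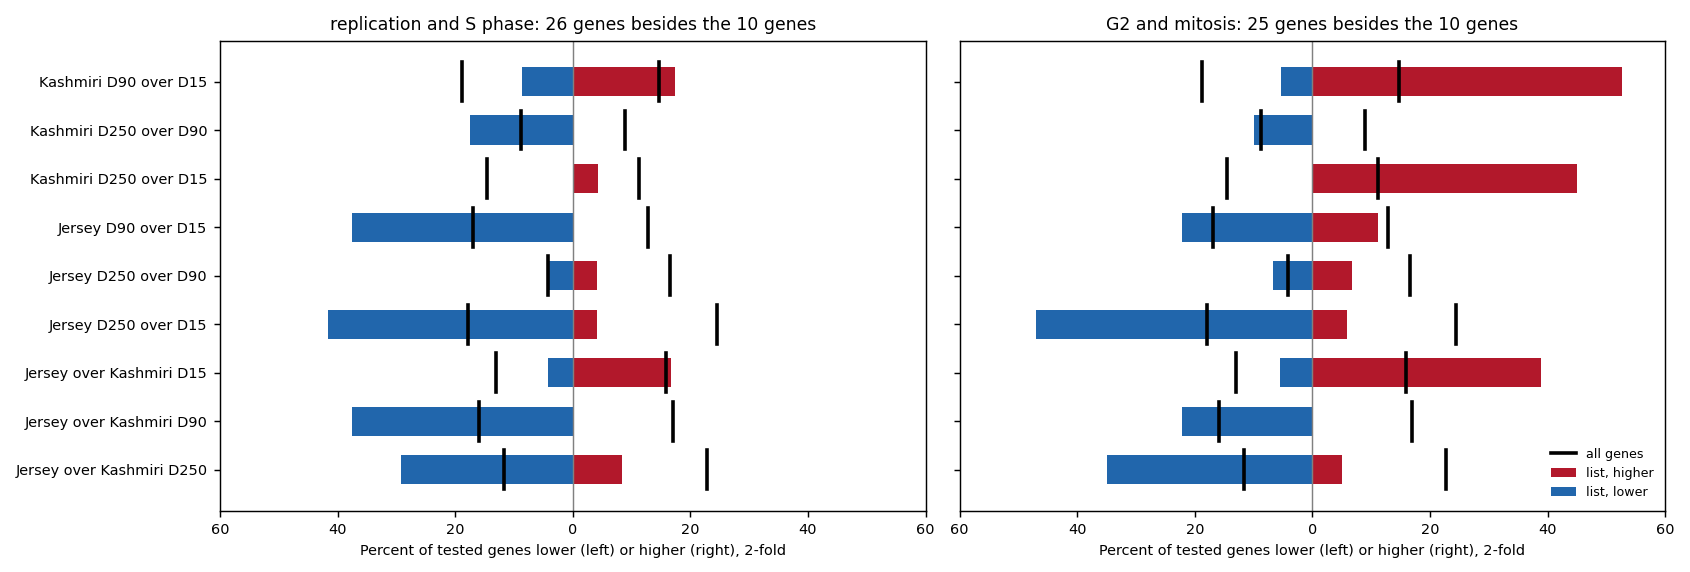
Percent of the tested genes of 2 lists (without the 10 genes) that were lower (blue, left) or higher (red, right) past 2-fold in each comparison, with the same percent over all genes as black bars. The mitotic list extends to the right for D90 and D250 over D15 in Kashmiri cattle, and both lists to the left for D250 over D15 in Jersey cattle.

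Among 18 further genes of G1 found of 20, the transcription factor E2F2 had the largest absolute log2 ratio between the breeds on each day, among those with 1 FPKM or more in both groups. It had 1.73, 2.48 and 2.44 FPKM in Kashmiri and 16.2, 22.4 and 112 FPKM in Jersey cattle. E2F3 had 0.313, 0.665 and 1.09 FPKM in Kashmiri and 1.96, 2.49 and 12.8 FPKM in Jersey cattle. CCND2, the remaining D-type cyclin, had 16.2, 45.8 and 11.99 FPKM in Kashmiri, with its peak at D90 like CCND3, and 14.0, 14.0 and 22.1 FPKM in Jersey cattle. E2F1, a factor that drives S phase genes, had 5.91, 2.38 and 1.86 FPKM in Jersey cattle, the same order of days as MCM2. At D250 between the breeds, 4 of 16 tested genes of the list were higher and 2 lower in Jersey cattle (22.8% and 11.7% of all), which became 2 higher and 7 lower under sum scaling (13.6% and 37.6% of all), in both cases near the shares of all genes.

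Of 6 further CDK inhibitors, 5 were found. CDKN2D, which encodes p19 and inhibits CDK4 and CDK6, had 16.7, 36.0 and 11.5 FPKM in Kashmiri and 75.6, 112 and 160.3 FPKM in Jersey cattle, so that it shared with CDKN1A the peak at D90 in the former and the highest value at D250 in the latter. CDKN1C, encoding p57, was highest at D15, with 16.8, 1.45 and 2.97 FPKM in Kashmiri and 4.27, 0.466 and 1.98 FPKM in Jersey cattle. CDKN2C, encoding p18, had 6.62, 11.1 and 4.30 FPKM in Kashmiri and 4.94, 1.99 and 1.17 FPKM in Jersey cattle. The inhibitors thus did not share a direction in Jersey cattle.

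Of 15 quiescence and antiproliferative genes, 14 were found. BTG1, a gene abundant in resting leukocytes, had 185, 458 and 179 FPKM in Kashmiri and 329, 1852 and 3960.4 FPKM in Jersey cattle, with the same day of highest value in each breed as CDKN1A. FOXO1, a factor that can induce p27, had 8.81, 21.4 and 9.67 FPKM in Kashmiri and 2.84, 2.097 and 2.42 FPKM in Jersey cattle. At D250, 1 of 13 tested genes of the list was higher and 1 lower in Jersey than in Kashmiri cattle, with a median of -0.12 against -0.10 for all genes and 22.8% of all genes higher and 11.7% lower. Under sum scaling 1 was higher and 6 were lower, beside 13.6% and 37.6% of all genes.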

How the data were processed

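Reads were trimmed with Trimmomatic, aligned with TopHat and Bowtie against UMD3.1, and quantified with Cufflinks and Cuffdiff. The deposited FPKM values were made by the authors, with 1 value for each of the 6 groups. The columns name the breeds Local and Jersey, and Local was read as Kashmiri, the only other breed in the labels. The day of each stage was taken from the series description. Of the 61264 entries, 25121 carried a gene name. Where a name came back, its entry of highest mean over the groups was taken. Log2 ratios used a pseudocount of 1 FPKM. Ratios called plain or fold used none.

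The 10 genes and the gene lists were chosen with earlier results of these data known. From each other list of cell cycle genes, up to 4 genes per comparison were named, mostly with their values in further groups. They were taken by size of the absolute log2 ratio where both groups reached 1 FPKM. RFC4, CDC45 and BUB1B, named for their highest day in Kashmiri cattle, and the markers of cell types fell outside this rule. The shared groups make the comparisons dependent. Another pseudocount, filter, threshold, handling of repeated names and 2 scalings were tried as alternatives. Sequences and genome positions were not used here, and 1 further gene list is not reported here. The code was tested on simulated data. Scripts ran under Python 3.11.15 with pandas 2.3.3, numpy 2.4.6 and, for plots, matplotlib 3.10.9.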

Additional observations from a re-analysis of the deposited data

Results flagged for a closer look

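For 3 genes the change between days went past 2-fold in opposite directions in the breeds, on plain ratios of the group values. With 1 FPKM added, none of the 3 passed 2-fold in Jersey cattle. The Jersey log2 ratio was then -0.80 for MKI67 (D90 over D15), and -0.61 for TOP2A and -0.99 for CCNB1 (D250 over D15). In Kashmiri cattle it was 0.83, 1.20 and 1.51. On plain ratios, the log2 ratio in Jersey minus that in Kashmiri cattle gave the difference between the breeds. It was -2.81 for MKI67 between D15 and D90, -3.22 for TOP2A between D15 and D250 and -4.59 for CCNB1 between D15 and D250. These differences were not tested, since each rests on 4 values without replicates, and the levels are at most 3 FPKM. The markers of neutrophils, macrophages, T cells, B cells and epithelial cells also differed between these groups, and their part was not tested.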

How the results depend on the processing

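No paired analysis was possible because the values are 1 per group, and for the same reason no replicate could be left out. Of 450 log2 ratios of single genes recomputed under 5 alternatives, 410 kept their sign and stayed within a factor of 1.5. This count includes 2 alternatives that could not change any of the ratios. None of the ratios past 2-fold changed sign, and 16 smaller ones, at most 0.53 in size, did, all under rescaling. Summing the entries of a name could not change a ratio, since each of the 10 genes had a single entry. A filter of 0.01 FPKM changes only which genes are tested. All 90 ratios were therefore unchanged under each, which says nothing on how stable they are. Of 90 ratios each, 63 stayed within that factor under sum scaling, 87 under upper-quartile scaling and 80 when 0.1 FPKM was added. With a pseudocount of 0.1 FPKM, the number of genes past 4-fold changed in 5 comparisons, given with the share of all genes tested. In Kashmiri cattle it became 1 for D90 over D15 (14.6%) and 1 for D250 over D15 (9.14%). In Jersey cattle it became 2 for D90 over D15 (12.5%) and 2 for D250 over D15 (19.7%). Between the breeds at D15 it became 1 (14.4%). With each group scaled to its summed FPKM, milk protein genes left out, the number past 4-fold changed in Kashmiri cattle and between the breeds. It became 1 for D90 over D15 (7.07% of all) and 1 for D250 over D15 (7.05%) in Kashmiri cattle, and 1 between the breeds at D15 (9.56%). With an absolute log2 ratio of 1 the counts were those past 2-fold given above with their shares. They were 3, 3 and 4 in Kashmiri cattle (D90 over D15, D250 over D90, D250 over D15) and 4 and 3 in Jersey cattle (D90 over D15, D250 over D15). Between the breeds they were 4, 2 and 4 at D15, D90 and D250. Low levels limit the ratios of genes near 1 FPKM, which depend on the pseudocount.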

Other observations

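A list of genes that act in the turnover of p27 was read in the same way. Of 8 genes, 6 were found, and SKP2 and SKP1 were not among the names. Of the 5 genes tested, 0 were higher past 2-fold in any of the 9 comparisons, where 8.95% to 24.5% of all genes were, and at most 1 was lower (4.22% to 18.8% of all). Under sum scaling 1 was higher for D250 over D90 (25.2% of all genes) and 2 for D250 over D15 (37.7% of all) in Kashmiri cattle, and 3 were lower in Jersey than in Kashmiri cattle at D250 (37.6% of all). CKS1B, the cofactor for recognition of p27 by its ubiquitin ligase, had 70.4, 38.5 and 37.7 FPKM in Kashmiri and 31.1, 10.6 and 14.4 FPKM in Jersey cattle. CUL1, the scaffold of that ligase, had 8.87, 12.9 and 10.3 FPKM in Kashmiri and 8.48, 13.1 and 16.8 FPKM in Jersey cattle. COPS5, a subunit of the signalosome that acts on cullins, had 24.5, 21.9 and 26.3 FPKM in Kashmiri and 19.2, 18.4 and 13.6 FPKM in Jersey cattle. DDB1 had 55.8, 24.0 and 34.4 FPKM in Kashmiri and 35.3, 24.3 and 22.9 FPKM in Jersey cattle. As deposited, the gene lower past 2-fold was DDB1 for D90 over D15 in Kashmiri cattle, and CKS1B wherever else 1 was lower.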
